A study of Mus musculus with 12 samples.

Results

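RNA-seq counts of Lin-negative bone marrow were compared between libraries labelled Tet2+/-;Ins2Akita/+ (n = 3, the double mutant) and libraries labelled Tet2+/- (n = 3), so that the Ins2Akita/+ allele is the labelled difference and the Tet2+/- allele is shared. These 6 libraries were chosen by their labels from 12 samples in the series, of which 11 have a matching column of counts. The other libraries in the fit carried the label Ins2Akita/+ (n = 2) or WT (n = 3). All mice were C57BL/6. The Lin-negative fraction is marrow depleted of cells that carry markers of mature lineages. Neither age nor blood glucose is given in the sources used here, so hyperglycemia enters only through the allele. Of 31060 genes in the table, 15630 passed a low count filter and were tested.

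The Akita allele of Ins2 is a dominant mutation that makes proinsulin misfold in pancreatic beta cells, and carriers become hyperglycemic. Tet2 is a dioxygenase that oxidizes 5-methylcytosine in DNA, and its loss in blood stem cells favours myeloid over lymphoid output. In marrow, B cell identity is set by the transcription factors Ebf1 and Pax5, whereas neutrophils mature under C/EBP factors and fill in turn their primary, secondary and tertiary granules.

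The 11 libraries held from 14814409 to 22600405 counts. Levels below are CPM, a share of the library total after TMM scaling, and every value printed for the double mutant or for Tet2+/- is in the order of library numbers 1, 2 and 3. The libraries numbered 3 stood apart in 3 genotypes. Mitochondrial genes took 9.76% of counts in double mutant library 3 and 4.46% in Tet2+/- library 3, against 1.36% to 1.66% in the other 4 libraries of these groups. Summed maturing neutrophil genes were at 3400 CPM in Tet2+/- library 3 and 2490 CPM in WT library 3, against 30000 and 31900 CPM in the other Tet2+/- libraries, whereas double mutant library 3 held 68800 CPM. Results are therefore given with all libraries, with the library number as a block, and without the libraries numbered 3.

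The labels were checked against Tet2, which was at 66.5, 108 and 34.2 CPM in the double mutant libraries, against 19, 18.5 and 19.3 CPM in the Tet2+/- libraries (log2 difference 1.88, SE 0.45, edgeR quasi-likelihood adjusted p = 0.14; 0.0286 with the block and 0.00537 without number 3). The groups did not overlap although both carry the Tet2+/- label, and the Ins2Akita/+ libraries were at 131 and 107 CPM and the WT libraries at 91.2, 128 and 45.1 CPM. Both Tet2+/- groups shared transcripts that the others lacked: Pcna-ps2 had 502, 531 and 819 counts in the double mutant and 558, 546 and 1945 in Tet2+/-, against at most 7 counts in any Ins2Akita/+ or WT library. Atp6v0c-ps2, another pseudogene, had 549 to 752 counts in the double mutant and 574 to 829 in Tet2+/-, against at most 11 elsewhere. Genotype names below are those of the labels, and the part of the Tet2 level in any other difference was not tested. Ins2 was not analysed here.

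With all libraries, 41 genes passed an adjusted p of 0.05, which is 0.262% of those tested. In the double mutant 13 rose (0.0832%) and 28 fell (0.179%), and the median log2 difference of all genes was -0.08. All 41 kept the groups apart, without overlap, beside 8.48% of all genes that did so in the higher and 6.68% in the lower direction. The replicate block called 703 genes (4.5%), of which 442 were higher and 261 lower. Leaving out the libraries numbered 3 called 1163 of 15092 genes (7.71%), of which 585 were higher and 578 lower. All 41 genes were also called in both of these fits, and 549 genes were shared by them in the same direction, which is 78.1% of the calls with the block and 47.2% of those without number 3. With 1 library left out the count was 8, 3 and 6 without double mutant library 1, 2 or 3, 1 without Tet2+/- library 1 or 2, 66 without Tet2+/- library 3, 49 without WT library 3, and 0 without either Ins2Akita/+ library or without WT library 1 or 2 (1429 to 1481 genes at an unadjusted p under 0.05 by edgeR). Within the 6 libraries alone edgeR called 0 genes, with 1074 at an unadjusted p under 0.05, whereas DESeq2 on the 11 libraries called 538 (3.45%).

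**Figure D1:**
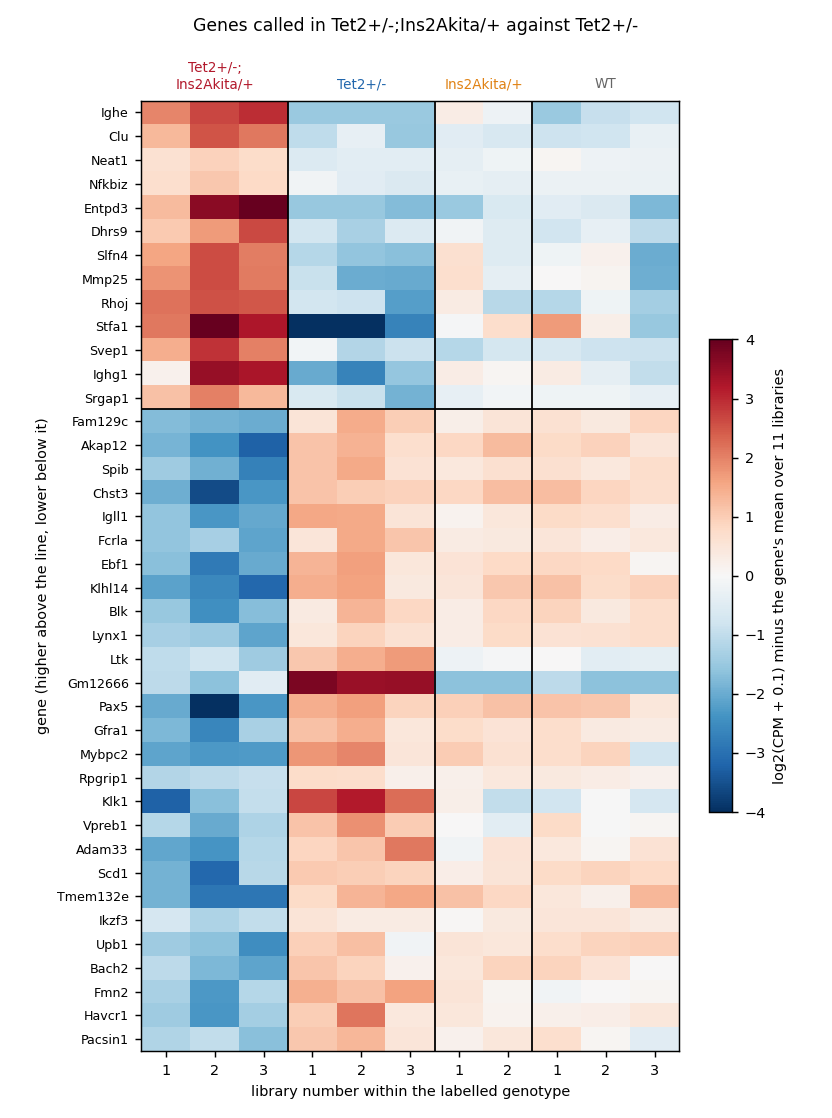
Heat map of the called genes (rows, with 1 of the 41 not shown) in 11 libraries (columns, by labelled genotype), coloured by log2(CPM + 0.1) minus the mean of the gene over the 11 libraries. Every double mutant library lies above the other 8 libraries in 12 of 13 higher genes and below them in all lower genes shown but Gm12666 and Klk1.

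For most of these genes the double mutant libraries lay outside the range of the 8 remaining libraries, which could differ among themselves. Of the 13 genes that rose, 12 were higher in every double mutant library than in any Tet2+/-, Ins2Akita/+ or WT library, and of the 28 that fell, 26 were lower. Over all genes tested, 5.04% stood above and 3.49% below all 8 others in this way. The called genes were chosen by their difference from Tet2+/-, so their place against those libraries was set by the choice. Of all genes tested, 1326 lay above Tet2+/- without overlap, and 787 of them stood above all 8 others. Likewise 1044 lay below Tet2+/-, and 545 of them stood below all 8. The exceptions among the called genes were Ighg1, Gm12666 and Klk1, named after their values were seen. Gm12666 had 3 counts in the double mutant libraries together against 211 in the Tet2+/- libraries, and the Ins2Akita/+ and WT libraries were at 0 to 0.0504 CPM. Klk1 was at 0.1, 0.497 and 0.887 CPM in the double mutant and 11.9, 17 and 8.89 CPM in Tet2+/-, against 0.864 to 2.12 CPM in the Ins2Akita/+ and WT libraries. For these genes the Tet2+/- libraries stood above all others.

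Genes of the B lineage fell in the double mutant. Of 20 on the list, 19 passed the filter, 7 fell and 0 rose, with a median log2 difference of -2.48 beside -0.08 over all genes tested. With the block 15 fell, beside 1.67% of all genes, and without number 3 16 fell, beside 3.83%. The median was -1.90 between the libraries numbered 1, -3.39 between those numbered 2 and -1.48 between those numbered 3. Vpreb2, the member under the filter, had 1 count in the double mutant and 11 in Tet2+/-. The summed level of the list was 172, 117 and 190 CPM in the double mutant, against 467, 683 and 345 CPM in Tet2+/-. In bulk RNA, fewer cells of a type and less RNA per cell cannot be told apart.

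The transcription factors of B cell specification were among the genes that fell. Ebf1 was at 2.56, 1.09 and 1.97 CPM in the double mutant, against 21.8, 26.1 and 11.6 CPM in Tet2+/- (log2 difference -3.40, SE 0.43, adjusted p = 0.0322). Pax5, which commits cells to the B lineage, was at 3.11, 0.497 and 2.47 CPM in the double mutant, against 35.4, 40.2 and 23.6 CPM in Tet2+/- (-4.03, SE 0.57, adjusted p = 0.0367). For both genes the lowest Tet2+/- library, number 3, lay above every double mutant library, and Ins2Akita/+ and WT libraries were near Tet2+/-, at 25 and 29 CPM and at 28.1, 26.9 and 17.4 CPM for Pax5. Bach2, a repressor of plasma cell fate, fell as well, with 8.67, 5.17 and 4.12 CPM in the double mutant against 39, 33.3 and 20.5 CPM in Tet2+/- (-2.36, SE 0.38, adjusted p = 0.046). The cytokine receptor of this stage, Il7r, was at 8.07, 5.07 and 12.3 CPM in the double mutant against 23.6, 33.5 and 34.4 CPM in Tet2+/- (adjusted p = 0.11; 0.0257 with the block and 0.0254 without number 3). The recombinase gene Rag1 was at 0.902, 0.0497 and 0.19 CPM in the double mutant against 7.16, 5.99 and 17.5 CPM in Tet2+/- (adjusted p = 0.0731; 0.0249 and 0.0315 in the other fits).

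Signalling genes of B cells followed. Blk, a Src family kinase, had 2.11, 1.04 and 1.84 CPM in the double mutant against 8.01, 16 and 11.2 CPM in Tet2+/- (-2.82, SE 0.39, adjusted p = 0.0367). The groups did not overlap for Blk. Outside the list, Fam129c fell with 5.11, 4.57 and 4.25 CPM in the double mutant against 24.7, 48.2 and 34.1 CPM in Tet2+/- (-2.94, SE 0.29, adjusted p = 0.0199), and Fcrla, an Fc receptor-like protein of B cells, fell by 2.78 on the log2 scale (SE 0.34, adjusted p = 0.0259). Dntt, which adds bases at immunoglobulin joins, had 9.72, 13.5 and 62.4 CPM in the double mutant against 23.6, 19.9 and 17.5 CPM in Tet2+/-, with overlap (0.49, SE 0.72, adjusted p = 0.809; 0.908 with the block, and 0.0354 without number 3, where it was lower). Foxo1, a factor upstream of B cell genes, had 38.6, 24.8 and 10.4 CPM in the double mutant against 87.2, 99 and 18.9 CPM in Tet2+/- (adjusted p = 0.513; 0.0257 with the block and 0.0089 without number 3), with overlap over all libraries but lower values at each number.

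The surrogate light chain, which pairs with the heavy chain in precursor B cells before a light chain exists, is encoded by Igll1 and Vpreb1. Both lie on the minus strand of chromosome 16 and both fell, so the stretches around their starts are shown. Igll1 (chr16:16860671-16863985) was at 0.652, 0.348 and 0.444 CPM in the double mutant against 6.35, 6.29 and 3.09 CPM in Tet2+/- (-3.43, SE 0.41, adjusted p = 0.0259). Vpreb1 (chr16:16868403-16870843) was at 0.551, 0.249 and 0.507 CPM in the double mutant against 3.03, 4.98 and 2.75 CPM in Tet2+/- (-3.03, SE 0.45, adjusted p = 0.0384). The sequences, from RefSeq on GRCm38.p6, run 5′ to 3′ from 250 bases before to 50 bases after the start. They cover chr16:16863936-16864235 for Igll1 and chr16:16869206-16869505 for Vpreb1, both read on the minus strand. The start of Vpreb1 is that of RefSeq, which lies inside the longer span given above from GENCODE M21. Capitals mark the E-box CANCTG, the letters bound by E proteins such as E2A, searched on both strands.
Igll1: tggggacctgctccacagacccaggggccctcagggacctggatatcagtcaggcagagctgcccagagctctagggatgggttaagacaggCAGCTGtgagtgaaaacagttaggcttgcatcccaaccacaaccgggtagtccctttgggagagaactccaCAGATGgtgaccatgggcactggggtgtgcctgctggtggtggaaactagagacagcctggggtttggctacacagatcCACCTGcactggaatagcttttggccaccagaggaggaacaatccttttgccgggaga
Vpreb1: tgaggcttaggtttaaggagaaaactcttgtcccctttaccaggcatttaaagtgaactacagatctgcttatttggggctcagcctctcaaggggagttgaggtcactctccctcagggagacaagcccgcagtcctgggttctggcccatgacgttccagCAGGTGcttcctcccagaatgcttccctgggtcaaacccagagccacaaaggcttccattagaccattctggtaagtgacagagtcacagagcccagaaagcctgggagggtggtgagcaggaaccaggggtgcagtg
Igll1 held 3 matches and Vpreb1 1. E-boxes stood in 42.9% of 21 promoters found for the genes that fell and in 51.4% of all 32851 promoters. In all 5 motifs were searched. The EBF1 letters (TCCC, 2 free bases, GGGA) stood in 1 of these 21 promoters, 4.76%, and in 0.904% of all. The NF-kB letters (GGGA, 3 free bases, CCC) stood in 5 of these 21, 23.8%, in 1 of 8 found for the genes that rose, 12.5%, and in 5.55% of all. Matches of different motifs may overlap. A match describes letters and not binding.

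Genes of dendritic cells, antigen presentation and T and NK cells had medians below 0. Of 14 dendritic cell genes that passed (of 15), 1 fell, with a median of -1.64 and values below 0 for all 14, while 8 fell with the block and 11 without number 3, beside 1.67% and 3.83% of all genes. Spib, an Ets factor of B cells and plasmacytoid dendritic cells, was the member that fell, with 10.4, 7.46 and 4.25 CPM in the double mutant against 62, 81.1 and 42.2 CPM in Tet2+/- (-3.06, SE 0.36, adjusted p = 0.0259). Siglech, a surface lectin of plasmacytoid dendritic cells, was at 21.9, 19.2 and 12.1 CPM in the double mutant against 101, 150 and 43.5 CPM in Tet2+/- (adjusted p = 0.0531; 0.0107 with the block and 0.00235 without number 3). Irf8, the factor that directs monocyte and dendritic fate, was at 88.9, 87.6 and 62.3 CPM in the double mutant against 200, 252 and 167 CPM in Tet2+/- (adjusted p = 0.128; 0.0471 and 0.0052). For all 3 genes the double mutant libraries lay below every Tet2+/- library.

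For MHC class II, 0 of 8 genes were called with all libraries, 5 fell with the block (beside 1.67% of all genes) and 7 without number 3 (beside 3.83%), and the median was -1.57. H2-Aa, an alpha chain, was at 62.6, 63 and 31.3 CPM in the double mutant against 247, 266 and 55.5 CPM in Tet2+/-, so that Tet2+/- library 3 lay within the range of the double mutant (adjusted p = 0.253; 0.014 with the block and 0.00133 without number 3). Ciita, the coactivator of this gene set, was at 1.55, 2.04 and 2.47 CPM in the double mutant against 8.91, 4.51 and 5.36 CPM in Tet2+/-, without overlap (adjusted p = 0.113; 0.0375 and 0.0204). For T and NK cells, 0 of 22 genes were called with all libraries, 9 fell with the block and 15 without number 3, beside the same 1.67% and 3.83% of all genes, with a median of -1.43. Cd3e, a chain of the T cell receptor complex, was at 3.96, 3.28 and 3.8 CPM in the double mutant against 9.43, 13.5 and 9.42 CPM in Tet2+/- (adjusted p = 0.0941; 0.0257 and 0.0156). Of 15 early lymphoid genes 1 fell, 5 with the block and 9 without number 3, again beside 1.67% and 3.83% of all genes. The 1 was Ikzf3, an Ikaros family factor, at 12.4, 8.5 and 10.1 CPM in the double mutant against 28.7, 24.9 and 25 CPM in Tet2+/- (-1.34, SE 0.21, adjusted p = 0.046). The median of the early lymphoid list was -0.55, and between the libraries numbered 3 it was 0.04.

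**Figure D2:**
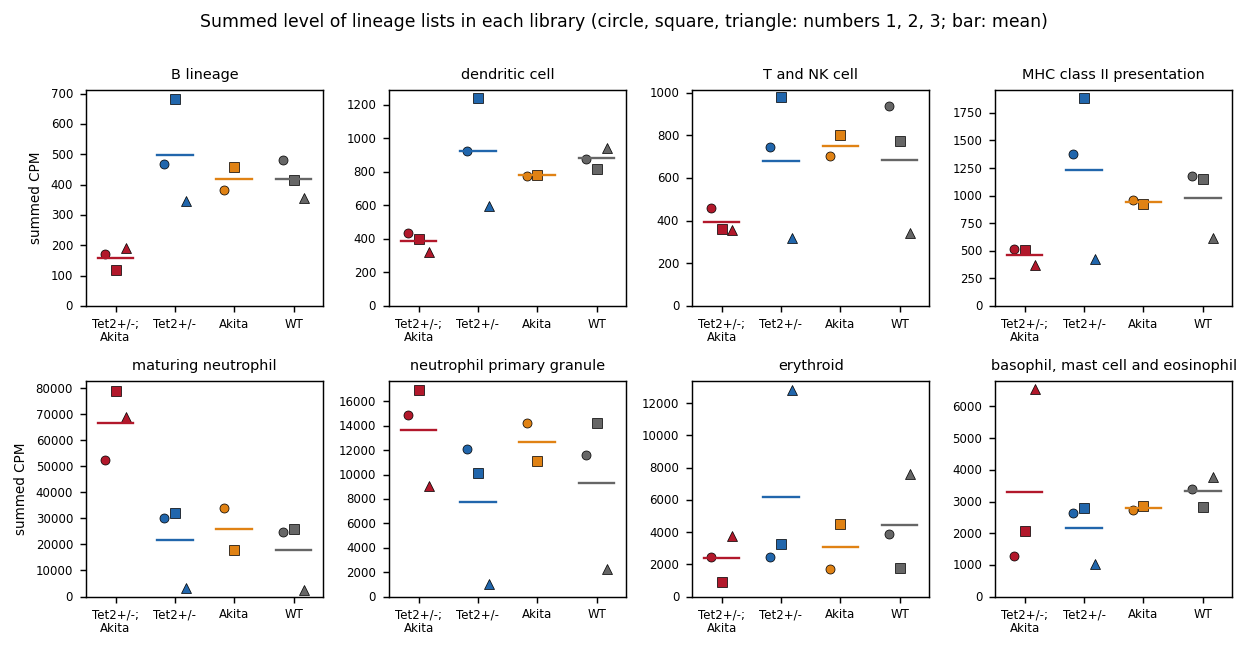
Summed CPM of 8 lineage lists in each library, by labelled genotype. Circles, squares and triangles are libraries numbered 1, 2 and 3, and bars are group means. The B lineage and maturing neutrophil panels separate all 3 double mutant libraries from all 3 Tet2+/- libraries in opposite directions, while triangles stand apart in the neutrophil panel for Tet2+/- and WT, in the erythroid panel for Tet2+/- and in the basophil panel for the double mutant.

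Immunoglobulin genes differed between classes. The list of 11 immunoglobulin and plasma cell genes had a median of 0.28, with 0 called with all libraries. With the block Jchain was higher and Ighm and Irf4 were lower, beside 2.83% of all genes higher and 1.67% lower. The 8 constant genes of the heavy chain were looked at as a family after their values were seen. Of the early classes, Ighm was at 516, 198 and 795 CPM in the double mutant against 1760, 1840 and 4250 CPM in Tet2+/- (adjusted p = 0.295; 0.0298 with the block, 0.0666 without number 3). Ighd was at 2, 0.895 and 5.51 CPM in the double mutant against 10.5, 12.5 and 8.6 CPM in Tet2+/- (adjusted p = 0.221; 0.0685 with the block, 0.00537 without number 3). Among classes made after switching, Ighg1 and Ighe rose. Ighg1 was at 62, 613 and 530 CPM in the double mutant against 13.5, 8.6 and 18.6 CPM in Tet2+/- (4.89, SE 0.79, adjusted p = 0.046), and double mutant library 1 lay within the 27.6 to 69.1 CPM of the Ins2Akita/+ and WT libraries. Ighe had 20, 34 and 33 counts in the double mutant and 0 in each Tet2+/- library, which is 30.5-fold higher when the Tet2+/- total is set at a floor of 3 counts. The lower end of the 95% exact counting interval of the ratio, which covers counting error only, was 24.3. Ighe had 0 to 4 counts in the Ins2Akita/+ and WT libraries. Igha was at 8780, 9630 and 7490 CPM in the double mutant against 1890, 3070 and 1120 CPM in Tet2+/- (adjusted p = 0.21; 0.0303 with the block, 0.0313 without number 3), without overlap, although the Ins2Akita/+ and WT libraries ran from 1170 to 7100 CPM. Ighg2b and Ighg2c overlapped between the groups. Ighg3, also a switched class, was at 11, 8.21 and 71.4 CPM in the double mutant against 21, 19.3 and 193 CPM in Tet2+/- (-1.37, SE 1.07, adjusted p = 0.647; 0.111 with the block and 0.158 without number 3), so the groups overlapped but the double mutant was below Tet2+/- at each number. Jchain, which joins IgA and IgM into polymers in plasma cells, was at 1510, 1840 and 2130 CPM in the double mutant against 601, 684 and 868 CPM in Tet2+/- (adjusted p = 0.113; 0.0286 and 0.0356). Reads of such similar constant genes can be split by the counting, so the division between classes is uncertain.

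Genes of maturing neutrophils were higher in the double mutant. Of 26 on the list 2 rose, 9 rose with the block (beside 2.83% of all genes) and 6 without number 3 (beside 3.88%), and the median was 1.87. All 26 log2 differences were above 0, and 23 members did not overlap between the groups, beside 8.48% of all genes in the higher direction. The median was 0.93 between libraries numbered 1, 1.72 between those numbered 2 and 4.33 between those numbered 3. Mmp25, a membrane-anchored metalloproteinase of neutrophils, was at 89.5, 156 and 108 CPM in the double mutant against 13.7, 6.41 and 6.28 CPM in Tet2+/- (3.74, SE 0.60, adjusted p = 0.046). Every double mutant library also lay above the Ins2Akita/+ libraries, at 40.8 and 20 CPM, and the WT libraries, at 6.59 to 27.5 CPM. Cxcr2, the chemokine receptor that mobilizes neutrophils, was at 44.4, 114 and 201 CPM in the double mutant against 22.3, 18.6 and 15.8 CPM in Tet2+/- (adjusted p = 0.0889; 0.039 with the block and 0.0677 without number 3). Padi4, the deiminase of histones in neutrophil traps, was at 171, 246 and 176 CPM in the double mutant against 64.5, 42.6 and 17.3 CPM in Tet2+/- (adjusted p = 0.162; 0.017 and 0.0148). S100a8 and S100a9, the calprotectin subunits, were the most abundant members: S100a9 was at 11900, 21200 and 18300 CPM in the double mutant against 7750, 8580 and 895 CPM in Tet2+/-, and its adjusted p was 0.554, with 0.121 under the block and 0.12 without number 3.

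Stefins, inhibitors of cysteine proteases that are abundant in neutrophils, lie in a cluster on chromosome 16. Stfa1 (chr16:36276951-36285373, plus strand) had 156, 927 and 276 counts in the double mutant against 0, 0 and 4 in Tet2+/- (adjusted p = 0.046). The Ins2Akita/+ libraries had 28 and 61 counts and the WT libraries 118, 42 and 9, so the Tet2+/- libraries were the lowest of all. Stfa3 was at 5.11, 11.5 and 89.6 CPM in the double mutant against 0.284, 0.415 and 0.0966 CPM in Tet2+/- (adjusted p = 0.0665; 0.0307 with the block and 0.00487 without number 3). Stefin genes are near copies of each other, and reads may have been shared among them. The Stfa1 promoter is shown because a C/EBP match, TTNNGCAA on either strand (here on the minus strand, in capitals), lies in it. The stretch covers chr16:36276898-36277197 on the plus strand of GRCm38.p6, from RefSeq. As for Vpreb1, the RefSeq start lies inside the span given above from GENCODE M21, and here the match does too.
Stfa1: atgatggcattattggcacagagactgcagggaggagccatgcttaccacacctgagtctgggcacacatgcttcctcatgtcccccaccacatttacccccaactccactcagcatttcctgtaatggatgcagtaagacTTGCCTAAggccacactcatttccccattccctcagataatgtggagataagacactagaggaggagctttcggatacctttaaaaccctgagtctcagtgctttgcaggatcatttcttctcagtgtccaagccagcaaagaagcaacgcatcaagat
The C/EBP letters stood in 2 of 8 promoters found for the genes that rose, which is 25%, and in 10.8% of all promoters. The PU.1 letters GAGGAAGT stood in 0 of these 8, in 0 of the 21 found for genes that fell and in 3.2% of all.

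Primary granule genes, made earlier in neutrophil development, had a median of 0.94. Of 13, 0 were called with all libraries or with the block, while 2 rose without number 3, beside 3.88% of all genes. These 2 were Ctsg, at 650, 896 and 502 CPM in the double mutant against 436, 396 and 38 CPM in Tet2+/- (adjusted p = 0.043 without number 3), and Gstm1 (0.0383). Among the C/EBP factors, Cebpe, which drives secondary granule genes, was at 113, 161 and 88 CPM in the double mutant against 62.8, 56.5 and 5.31 CPM in Tet2+/- (adjusted p = 0.536; 0.0626 with the block and 0.0205 without number 3). The groups did not overlap for Cebpe, and the ratio, though not the gap in CPM, was largest between the libraries numbered 3.

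The remaining genes that rose include regulators of inflammation. Nfkbiz, a nuclear IkB protein that tunes NF-kB targets, was at 499, 654 and 542 CPM in the double mutant against 281, 227 and 209 CPM in Tet2+/- (1.24, SE 0.19, adjusted p = 0.0384). Neat1, the RNA scaffold of paraspeckles, was at 426, 532 and 461 CPM in the double mutant against 192, 208 and 209 CPM in Tet2+/- (1.22, SE 0.18, adjusted p = 0.0367). Both stood above all Ins2Akita/+ and WT libraries, which ran from 245 to 265 CPM for Nfkbiz and from 219 to 292 CPM for Neat1. Slfn4, a Schlafen protein of myeloid cells, was at 348, 723 and 488 CPM in the double mutant against 53.7, 39.6 and 37.1 CPM in Tet2+/- (3.58, SE 0.57, adjusted p = 0.046). It was the 1 of 7 Schlafen genes called, with 3 higher under the block (beside 2.83% of all genes), when Slfn1 and Slfn2 joined it. Clu, an extracellular chaperone, was at 12.8, 30.3 and 22.9 CPM in the double mutant against 2.51, 4.15 and 1.74 CPM in Tet2+/- (2.98, SE 0.43, adjusted p = 0.0367). Entpd3, an ectonucleotidase named after its values were seen, was at 2.21, 11.7 and 27.3 CPM in the double mutant against 0.237, 0.237 and 0.193 CPM in Tet2+/- (5.91, SE 0.93, adjusted p = 0.046). Dhrs9, Rhoj, Svep1 and Srgap1 rose by log2 differences of 2.81 to 3.76.

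**Figure D3:**
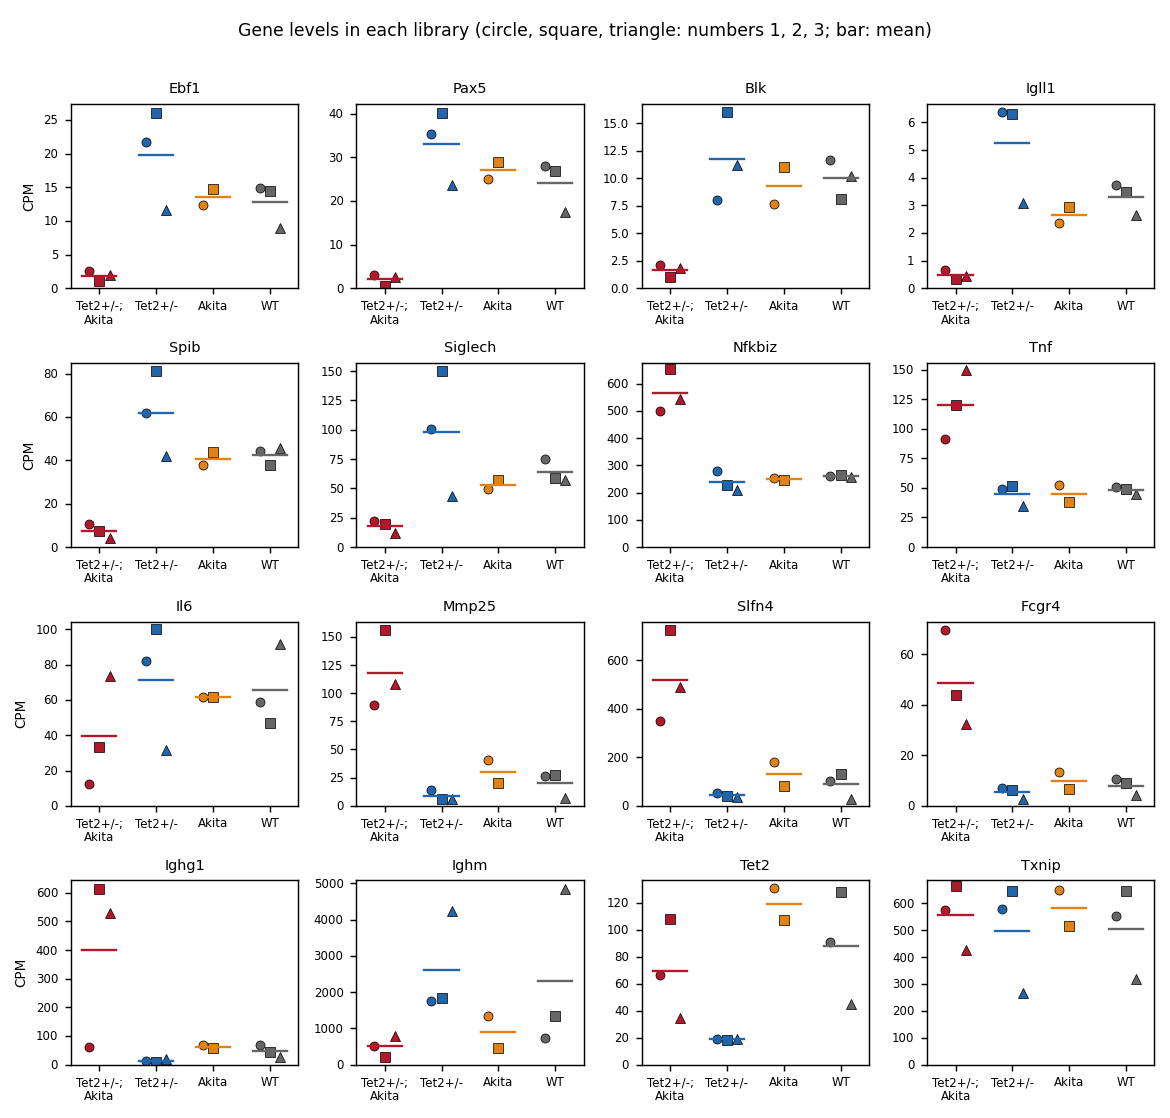
CPM of 16 genes in each library, on linear axes that start at 0, by labelled genotype. Circles, squares and triangles are libraries numbered 1, 2 and 3, and bars are group means. The double mutant libraries sit below all others for Ebf1, Pax5, Igll1 and Spib and above all others for Nfkbiz, Tnf, Mmp25, Slfn4 and Fcgr4, while Il6 and Txnip overlap between the double mutant and Tet2+/-.

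Cytokine genes differed in direction. Of 22 genes of proinflammatory cytokines and NF-kB, 1 rose (Nfkbiz), 2 with the block (beside 2.83% of all genes), and the median was 0.19. Tnf was at 91.4, 120 and 150 CPM in the double mutant against 48.8, 51.6 and 34.7 CPM in Tet2+/- (1.42, SE 0.24, adjusted p = 0.0545; 0.0223 with the block and 0.0149 without number 3). No double mutant library overlapped any of the 8 others, which ran from 34.7 to 52.3 CPM. Il6 was at 12.3, 33.5 and 73.5 CPM in the double mutant against 82, 100 and 31.8 CPM in Tet2+/- (-0.84, SE 0.60, adjusted p = 0.617). The libraries numbered 1 and 2 were lower in the double mutant and those numbered 3 higher, and without number 3 Il6 fell by 1.99 on the log2 scale (adjusted p = 0.0283). Il1b was at 53.4, 75.8 and 28.3 CPM in the double mutant against 50, 54.9 and 33 CPM in Tet2+/- (0.19, SE 0.41, adjusted p = 0.869), and its receptor gene Il1r1 at 10.6, 9.55 and 21.9 CPM against 5.97, 7.48 and 7.68 CPM (0.99, SE 0.37, adjusted p = 0.373). Il1b overlapped and Il1r1 did not. Saa3, an acute phase apolipoprotein, was at 15.6, 22.9 and 8.37 CPM in the double mutant against 1.52, 0.712 and 0.0483 CPM in Tet2+/- (adjusted p = 0.102; 0.0113 with the block and 0.00487 without number 3).

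Immediate early genes had a median of 0.57, with 0 of 19 called and 3 higher with the block (beside 2.83% of all genes). These were Fosl1, Jun and Egr1. Fosl1, an AP-1 subunit, was at 22.1, 28.7 and 50.5 CPM in the double mutant against 14, 9.91 and 9.57 CPM in Tet2+/- (adjusted p = 0.0941; 0.0318 with the block and 0.0358 without number 3). Interferon-stimulated genes had a median of 0.16, and 0 of 24 were called with all libraries. With the block Cxcl10 and Rsad2 rose, and Ifi27l2a, Ifi44 and Irf9 fell, beside 2.83% of all genes higher and 1.67% lower. Cxcl10, an interferon-induced chemokine, was at 302, 400 and 218 CPM in the double mutant against 129, 148 and 63 CPM in Tet2+/- (adjusted p = 0.41; 0.0437 with the block and 0.00753 without number 3). Ifi27l2a, also interferon-induced, was at 1.25, 2.88 and 1.52 CPM in the double mutant against 14.2, 14.1 and 9.9 CPM in Tet2+/- (adjusted p = 0.0819; 0.0286 and 0.037).

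Receptors and effectors of phagocytes were called in the fits that handle library number and not with all libraries. Of 22 genes of Toll-like receptors and inflammasomes 0 were called with all libraries, 5 rose with the block (Tlr4, Tlr6, Myd88, Irak4 and Nlrc4) and 3 without number 3, beside 2.83% and 3.88% of all genes, with a median of 0.87. Tlr6, which pairs with Tlr2 to sense lipopeptides, was at 6.57, 11.5 and 5.64 CPM in the double mutant against 2.27, 1.6 and 1.11 CPM in Tet2+/- (adjusted p = 0.124; 0.0182 and 0.0104). Myd88, the adaptor of most of these receptors, was at 149, 191 and 134 CPM in the double mutant against 95.3, 93.3 and 46.5 CPM in Tet2+/- (adjusted p = 0.281; 0.0232 and 0.0185). Neither gene overlapped. All 5 Fc gamma receptor genes had values above 0 (median 1.20), and Fcgr3 and Fcgr4 rose with the block, beside the same 2.83% of all genes. Fcgr4 among them was at 69.6, 44 and 32.6 CPM in the double mutant against 7.16, 6.41 and 2.56 CPM in Tet2+/- (3.18, SE 0.53, adjusted p = 0.0525; 0.00191 with the block and 0.00537 without number 3). The 8 NADPH oxidase genes, whose product makes the respiratory burst, had a median of 1.04, and 1 rose with the block (again beside 2.83%). This was Ncf1, at 689, 1050 and 604 CPM in the double mutant against 386, 257 and 67.3 CPM in Tet2+/- (adjusted p = 0.331; 0.0288 and 0.0301). The medians of these 3 lists and of maturing neutrophil genes were above 0 at every library number, and the part of the neutrophil genes in them was not tested.

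Glucose handling was followed through 4 lists. Of 22 genes of glucose transport and glycolysis 0 were called with all libraries, 4 rose with the block (beside 2.83% of all genes) and 3 without number 3 (beside 3.88%). The median was 0.70, and 13 members did not overlap between the groups, all of them higher, beside 8.48% of all genes. Pfkfb4, which makes and breaks the activator of phosphofructokinase, was at 65.2, 93.7 and 93.7 CPM in the double mutant against 46.7, 31.3 and 18.2 CPM in Tet2+/- (adjusted p = 0.243; 0.0484 with the block and 0.0477 without number 3). Slc16a3, a lactate exporter, was at 107, 138 and 97.3 CPM in the double mutant against 49.1, 40.3 and 18.6 CPM in Tet2+/- (adjusted p = 0.336; 0.0456 and 0.00827). Gapdh and Ldha were the other members called with the block (0.043 and 0.0452). Of 14 genes of the pentose phosphate path and glycogen 4 rose with the block (G6pdx, Pgd, Gyg and Gys1) and 2 without number 3, beside the same 2.83% and 3.88%, with a median of 0.69. G6pdx, the entry enzyme of the pentose phosphate path, was at 251, 494 and 513 CPM in the double mutant against 184, 137 and 126 CPM in Tet2+/- (adjusted p = 0.113; 0.0425 and 0.087). Gys1, glycogen synthase, was at 67.5, 87 and 47.1 CPM in the double mutant against 40.3, 28.5 and 10.5 CPM in Tet2+/- (adjusted p = 0.392; 0.0256 and 0.0355). The glycolysis median was 0.25, 0.60 and 1.40 between libraries numbered 1, 2 and 3, beside 0.93, 1.72 and 4.33 for maturing neutrophil genes, and the part of the neutrophil genes in it was not tested.

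Transcriptional targets of glucose sensing ranged from -1.87 to 0.36. Of 6 ChREBP and MondoA genes that passed (of 7), 0 were called in any of these 3 fits, and the medians were 0.12, 0.13 and 0.19 in the libraries numbered 1, 2 and 3. Txnip, the glucose-induced arrestin that limits glucose uptake, was at 575, 665 and 426 CPM in the double mutant against 579, 644 and 267 CPM in Tet2+/- (0.16, SE 0.37, adjusted p = 0.879). The groups overlapped, and the libraries numbered 3 were the lowest of both. Pklr, a pyruvate kinase of liver and red cells, was at 30.5, 8.8 and 98.5 CPM in the double mutant against 29.2, 24.6 and 450 CPM in Tet2+/- (-1.87, SE 1.34, adjusted p = 0.619), with overlap, beside an erythroid median of -1.56. Insulin signalling and FOXO genes had a median of 0.01, with 0 of 23 called with all libraries. With the block Bcl6 rose, and Foxo1, Sesn1 and Sesn3 fell, beside 2.83% of all genes higher and 1.67% lower. Genes of the unfolded protein response had a median of 0.34 and 0 of 20 called with all libraries or with the block, while 1 rose without number 3 (beside 3.88% of all genes). Oxidative phosphorylation genes of the nucleus had a median of -0.26 and 0 of 28 called, with all 28 below 0. NRF2 targets had a median of -0.08 and 0 of 16 called with all libraries or with the block. Without number 3, 2 of them rose, beside 3.88% of all genes, and the list median was 0.2. Scd1, a desaturase of fatty acids that is in none of these lists and fell, was named after its values were seen, at 4.31, 1.74 and 7.48 CPM in the double mutant against 33.5, 32.5 and 30.1 CPM in Tet2+/- (-2.83, SE 0.43, adjusted p = 0.0408).

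**Figure D4:**
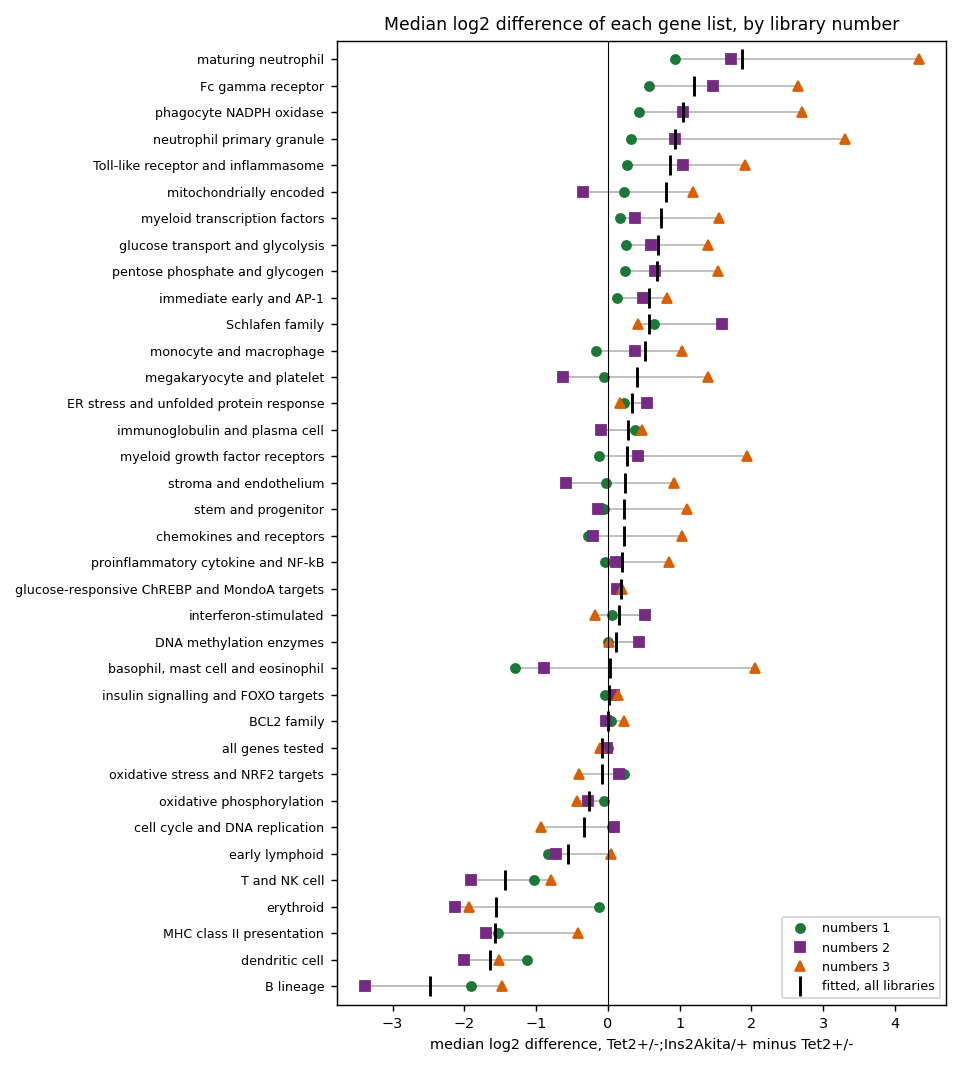
Median log2 difference, double mutant minus Tet2+/-, of 35 gene lists and of all genes tested. Circles, squares and triangles are libraries of the same number compared directly, and black ticks are fitted values over all libraries. B lineage medians lie below 0 and maturing neutrophil medians above 0 at every number, whereas the basophil, mast cell and eosinophil list lies at -1.30, -0.89 and 2.05.

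Levels of several other lineages varied with the library number. The basophil, mast cell and eosinophil list summed to 1280, 2080 and 6540 CPM in the double mutant against 2650, 2790 and 1040 CPM in Tet2+/-. Without number 3, 7 of its 15 members that passed fell, beside 3.83% of all genes, and with all libraries 0 were called. Mcpt8, a basophil protease, was at 141, 192 and 1620 CPM in the double mutant against 545, 646 and 251 CPM in Tet2+/- (0.44, SE 0.80, adjusted p = 0.845; 0.00479 without number 3, where it was lower). Erythroid genes summed to 2480, 887 and 3770 CPM in the double mutant against 2470, 3280 and 12800 CPM in Tet2+/-, with a median of -1.56 and 0 of 21 called in any of the 3 fits. Mitochondrially encoded genes summed to 13000, 13800 and 93800 CPM in the double mutant against 11500, 13800 and 39100 CPM in Tet2+/-, with 0 of 13 called. Of 28 genes of the cell cycle 0 were called with all libraries or with the block, and 2 rose without number 3, beside 3.88% of all genes. The list median with all libraries was -0.33, which came from the libraries numbered 3 (-0.93, against 0.06 and 0.08). Stem and progenitor genes had a median of 0.23 and 0 of 23 called with all libraries. With the block 1 rose (beside 2.83% of all genes), and without number 3 1 rose and 1 fell (beside 3.88% and 3.83%). Kit, the receptor of stem cell factor, was at 117, 76.1 and 99.3 CPM in the double mutant against 115, 106 and 122 CPM in Tet2+/-. Among 12 genes of DNA methylation, Tet2 was the 1 called with the block, beside 4.5% of all genes. Dnmt3a, a methyltransferase, was at 40.7, 38.8 and 42.1 CPM in the double mutant against 47.3, 31.7 and 40.2 CPM in Tet2+/- (0.03, SE 0.19, adjusted p = 0.961). Bcl2l11, a BH3-only death gene, was at 181, 178 and 58.7 CPM in the double mutant against 175, 193 and 55.9 CPM in Tet2+/- (-0.02, SE 0.64, adjusted p = 0.993), with nearly equal values at each number.

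Smaller lists of myeloid control and cell death are given beside the 4.5% of all genes called with the block (2.83% higher and 1.67% lower). Of 15 myeloid transcription factors 0 were called with all libraries (median 0.74), and with the block Egr1 and Bcl6 rose and Irf8 fell. Bcl6, a transcriptional repressor needed for germinal centres, was at 68.8, 94.3 and 21.3 CPM in the double mutant against 42.1, 39.6 and 9.08 CPM in Tet2+/- (adjusted p = 0.619; 0.0232 with the block and 0.0215 without number 3). Of 11 myeloid growth factor receptors (median 0.27), Csf2ra and Csf3r, the receptors of GM-CSF and G-CSF, rose with the block. Csf3r was at 293, 497 and 249 CPM in the double mutant against 214, 143 and 64.8 CPM in Tet2+/- (adjusted p = 0.427; 0.0426 and 0.0697), without overlap. Of 14 BCL2 family genes that passed (of 15; median 0), the BH3-only genes Pmaip1 and Bmf were called in opposite directions. Pmaip1 was at 167, 164 and 46.3 CPM in the double mutant against 96.1, 92.7 and 20.2 CPM in Tet2+/- (adjusted p = 0.656; 0.014 and 0.00827). Bmf was at 10.8, 11.8 and 3.04 CPM in the double mutant against 24.4, 31.1 and 6.72 CPM in Tet2+/- (adjusted p = 0.549; 0.0143 and 0.00827). For these 2 genes the direction held at each number although the ranges overlapped. Among 19 genes of chemokines and their receptors that passed (of 20; median 0.22), Cxcl10 and Cxcr2 rose with the block, and Cxcr3 and Ccr9 were among those that fell. Of 17 monocyte and macrophage genes (median 0.52) 1 was called with the block, Fcgr3, and of 17 megakaryocyte and platelet genes (median 0.41) also 1, Nfe2, counts that are near the 4.5% of all genes called in that fit. Without number 3, however, 3 of 15 megakaryocyte and platelet genes that passed rose, beside 3.88% of all genes, while the list median was -0.34. Between libraries numbered 1, 2 and 3 that median was -0.05, -0.63 and 1.4. Of 13 stroma and endothelium genes that passed (of 15; median 0.24) 0 were called with the block.

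Some genes were called with the block or without number 3 but not with all libraries. Fcnb, a ficolin lectin of myeloid cells, was at 307, 497 and 10.5 CPM in the double mutant against 29.9, 21.5 and 0.387 CPM in Tet2+/- (3.97, SE 1.72, adjusted p = 0.441; 0.00191 with the block and 0.00165 without number 3). The Ins2Akita/+ libraries were at 440 and 316 CPM and the WT libraries at 374, 345 and 5.99 CPM, so for Fcnb the Tet2+/- libraries stood apart at each number. Eps8l1, of the EPS8 family, had 81, 63 and 0 counts in the double mutant, 1, 0 and 1 in Tet2+/- and 82 to 170 in the others (adjusted p = 0.162; 0.071 with the block and 0.00225 without number 3). In the libraries numbered 3 the double mutant and Tet2+/- were alike for Eps8l1 and WT was not. Trpv1, a heat-gated cation channel, was instead found in the double mutant, with 106, 66 and 1 counts against 1, 0 and 0 in Tet2+/- and at most 1 in the others. Its ratio of summed counts was 182 (95% exact counting interval 32.2 to 7220, which covers counting error only), and its adjusted p was 0.139, with 0.00824 under the block. Cdk18, a kinase of the PCTAIRE family, was at 69.3, 72.8 and 8.94 CPM in the double mutant against 16.9, 15.1 and 0.918 CPM in Tet2+/- (adjusted p = 0.509; 0.00471 with the block and 0.00133 without number 3). Here the higher double mutant value held within each number while the range over numbers overlapped.

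On the WT background 0 genes passed for the same allele. Between Ins2Akita/+ and WT, which share no library with the comparison above, edgeR called 0 genes (0%; 67 at an unadjusted p under 0.05), as did DESeq2 and limma voom. The 13 genes that rose in the double mutant had a median log2 difference of 0.09 between Ins2Akita/+ and WT (range -0.31 to 2.22), beside 3.58 between the double mutant and Tet2+/-. The 28 that fell had a median of -0.01 (range -1.88 to 0.39), beside -3.16. The ends at 2.22 and -1.88 were Ighe and Gm12666, which had at most 4 counts and at most 0.0504 CPM in any Ins2Akita/+ or WT library. For lists, the B lineage median was -0.10 between Ins2Akita/+ and WT, the dendritic cell median -0.26 and the maturing neutrophil median 0.49. Ins2Akita/+ has no library numbered 3 whereas WT has, so this contrast is not balanced for library number. Summed maturing neutrophil genes were at 34000 and 17900 CPM in Ins2Akita/+ against 24800, 26100 and 2490 CPM in WT. With the block or without number 3 edgeR again called 0 genes (73 and 102 at an unadjusted p under 0.05). Between Ins2Akita/+ and WT, Pax5 had a log2 difference of 0.16 (SE 0.55) and Nfkbiz of -0.07 (SE 0.21).

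**Figure D5:**
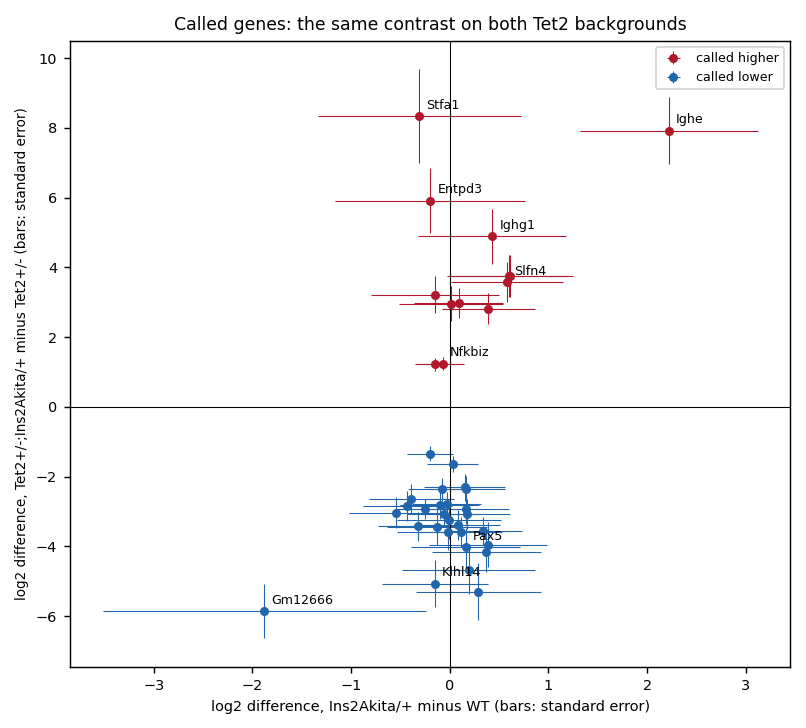
Fitted log2 differences of the 41 called genes, Ins2Akita/+ minus WT on the horizontal axis and double mutant minus Tet2+/- on the vertical axis, with standard errors as bars. The genes were chosen by the vertical axis. Horizontal values cluster near 0, apart from Ighe at 2.22 and Gm12666 at -1.88, which both had few or no counts in the Ins2Akita/+ and WT libraries.

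Whether the allele acted differently on the Tet2 backgrounds was tested by the interaction. With all libraries 0 genes passed in edgeR (0%; 537 at an unadjusted p under 0.05) and 0 in limma voom, whereas DESeq2 called 60 (0.385%). With the block 3 genes passed (0.0192%), without number 3 7 did (0.0464%), and with both 0 did (1602 at an unadjusted p under 0.05). Akap12, which anchors protein kinase A, was called in both, at 2.26, 1.54 and 0.824 CPM in the double mutant, 19.1, 22.3 and 13.7 CPM in Tet2+/-, 15.2 and 20.8 CPM in Ins2Akita/+ and 14.5, 16.3 and 12.1 CPM in WT. Its interaction was -3.71 (SE 0.38, adjusted p = 0.0339) with the block and -3.67 (SE 0.34, adjusted p = 0.0194) without number 3. Fcnb was called in both as well, with 4.02 (SE 0.41, adjusted p = 0.0339) with the block. Fcgr4 was the other gene called with the block (3.25, SE 0.35, adjusted p = 0.0368), with 13.3 and 6.53 CPM in Ins2Akita/+ against 10.6, 9.01 and 4.23 CPM in WT. Cdk18, Mybpc2, Spib, Eps8l1 and H2-Aa completed the 7 genes called without number 3. With no low count filter edgeR called 3 genes, Akap12, Spib and Chst3, and Chst3 had an interaction of -3.72 (SE 0.59, adjusted p = 0.0477).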

How the data were processed

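The authors deposited 1 table of raw counts of reads per gene, whole numbers without normalization. Build GRCm38 and the tools TopHat2 2.1.1, Trimmomatic 0.32 and bcl2fastq are named, per the submitters' processing notes; how reads were counted and whether strand was used is not given in the sources used here, so overlapping, antisense and near-identical genes are uncertain. Of 12 samples, 11 match a column; 1 column that matches no label was left out. Names and positions come from GENCODE M21 (30875 of 31060 identifiers).

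Counts of 4 groups were fitted together in edgeR 4.0.16 (R 4.3.3): filterByExpr, TMM, glmQLFit with robust=TRUE, glmQLFTest, Benjamini-Hochberg over all genes tested, threshold 0.05. The standard error is the log2 difference over the square root of F. The same steps were run on simulated counts with known changes but no effect of library number. Those counts cannot show how the fits handle that number. Limma 3.58.1 (voom) and DESeq2 1.42.0, other scalings and filters, the replicate block and each library left out were alternatives; the fit of only the 4 libraries numbered 1 and 2 was added after seeing the data. The labels do not state whether the samples of a group are separate animals; p-values reflect the spread of these libraries, which may be technical.

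Deviations from the group means of same-numbered double mutant and Tet2+/- libraries correlated at 0.341, 0.305 and 0.524, so the numbers of the labels were taken to pair them. Double mutant library 2 was nearer to Tet2+/- library 1 (0.441), so numbers 1 and 2 are not told apart by this check. Counts of every pair of libraries within a group differed by more than sampling noise (chi-square per gene of 15.6 or more).

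The members and the 35 lists were chosen with earlier results of these data known. Genes were named by a rule: Tet2, Ins2, Dnmt3a, Bcl2l11, Tnf, Il6, Il1b, Il1r1, S100a8, S100a9 and Txnip; up to 12 genes higher and 12 lower in each of the 3 fits, taken by smallest p among those averaging 1 CPM or more with a log2 difference of 1 or more in size, without Gm and Rik symbols; up to 3 members of a list by smallest p, and its most abundant. Other genes are named after their values were seen, among them Vpreb1, Ighe, the other heavy chain constant genes, the pseudogenes, Vpreb2, Entpd3 and list members called under the block. Some called genes and list members are not reported here.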

Additional observations from a re-analysis of the deposited data

How the results depend on the processing

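All 41 genes called between the double mutant and Tet2+/- kept their sign under every alternative in which they were tested. The count of 41 moved to 703 with the replicate block, 1163 without the libraries numbered 3, 634 with both, 579 with the 4 libraries numbered 1 and 2 alone, 538 by DESeq2, 86 with no low count filter, 8 at a mean of at least 5 CPM, 0 in the 6 libraries alone (1074 at an unadjusted p under 0.05) and 5 there with the block. It stayed at 39 and 42 with RLE and upper quartile factors, 32 by limma voom and 46 with robust=FALSE. Leaving out 1 library gave 0 to 66 calls. The 0 interaction calls became 60 by DESeq2, 3 with no filter, 3 with the replicate block and 7 without the libraries numbered 3; without 1 library they stayed at 0. The cause of these moves was not tested.

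Prss34, Cpa3, Pecam1, mt-Nd1 and mt-Co1 changed sign with a call or with both values beyond their SE. Other changes of sign, in uncalled genes with a value within its SE of 0, such as that of Emcn (1.04, and -0.17 without number 3), were not counted. Prss34 (0.92 with all libraries) was at -1.03 without number 3, -1.05 with the block as well and -1.04 in the 4 libraries, and ran from -0.73 (without double mutant library 3) to 1.39 with 1 library left out. Cpa3 (0.88) was at -1.23 in the first 3 of these and ran from -1 to 1.36. Pecam1 (0.12) was at -0.58 without number 3. With 1 library left out mt-Nd1 (0.96) ran from -0.65 to 1.51 and mt-Co1 (0.98) from -0.58 to 1.82, each lowest without double mutant library 3. Other genes whose call the block changes are given with both values in the text. With 3 libraries against 3, an exact permutation of 1 gene cannot go below a p of 0.1.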
